A study of Mus musculus with 31 samples.

Results

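The keratins of simple epithelia and the genes used to follow epithelial-mesenchymal transition were examined in tumours of a mesothelioma line grown at 3 body sites in mice. The members were 10 genes listed by symbol: the keratins Krt7, Krt8, Krt18 and Krt19, the cadherins Cdh1 (E-cadherin) and Cdh2 (N-cadherin), the intermediate filament vimentin (Vim), and the transcription factors Zeb1, Snai2 and Twist1. All 10 were among the 54456 entries of the whole tumour table and were tested there among 15054 genes. The table of sorted tumour cells listed 7 of them among 12444 named genes, and all 7 were tested among 12357 genes; Krt7, Krt19 and Cdh1 were not analysed in sorted cells. AB1-mCherry is a murine mesothelioma line carrying the red fluorescent protein mCherry. The cells injected were grown from its 5% brightest cells, taken by sorting. Female BALB/c mice, 12 weeks old and untreated, carried the tumours in the pleural cavity around the lungs, in the peritoneal cavity of the abdomen, or under the skin. Tumours were collected on day 10. Whole tumours came from 6 pleural, 5 peritoneal and 5 subcutaneous mice. Tumour cells, taken by a gate on mCherry-positive events lacking CD45, came from 5 mice at each site, which gave 31 RNA-seq libraries in all. Every group received the same cells, so the sites differ in the surrounding tissue and in the mice.

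Keratins are the intermediate filaments of epithelial cells, and each filament pairs an acidic type I keratin, such as Krt18, Krt19 or Krt20, with a basic type II keratin, such as Krt7 or Krt8. Mesothelial cells, which line the pleural and peritoneal cavities, are unusual in making simple-epithelial keratins together with vimentin, the filament of mesenchymal cells. In epithelial-mesenchymal transition, cells lose E-cadherin and gain N-cadherin and vimentin, and Zeb1, Snai2 (Slug) and Twist1 are factors that bind E-box sequences in DNA and repress Cdh1.

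The 250 bases before the start of 4 members that differed between sites are shown for the E-boxes they hold. RefSeq promoters of 5 of the 10 members, matched by symbol, were examined on build GRCm38.p6, whereas the expression tables were made on GRCm39. Promoters of the other members were not examined. The letters searched were CAGGTG, its complement CACCTG, and CAGCTG, which is its own complement; matches are in capitals and sequences run 5′ to 3′ along the strand of the gene.
Krt7, chr15:101412153-101412402, plus strand: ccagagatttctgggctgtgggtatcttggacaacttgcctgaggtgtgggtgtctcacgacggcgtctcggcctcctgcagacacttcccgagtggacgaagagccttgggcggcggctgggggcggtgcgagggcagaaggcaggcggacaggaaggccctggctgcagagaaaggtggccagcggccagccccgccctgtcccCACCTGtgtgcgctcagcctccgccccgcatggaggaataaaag
Krt8, chr15:102004343-102004592, minus strand: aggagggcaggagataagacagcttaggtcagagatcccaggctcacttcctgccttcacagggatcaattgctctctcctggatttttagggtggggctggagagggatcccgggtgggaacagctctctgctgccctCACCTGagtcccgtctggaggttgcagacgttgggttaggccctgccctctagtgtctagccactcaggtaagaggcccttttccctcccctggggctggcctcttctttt
Krt18, chr15:102027966-102028215, plus strand: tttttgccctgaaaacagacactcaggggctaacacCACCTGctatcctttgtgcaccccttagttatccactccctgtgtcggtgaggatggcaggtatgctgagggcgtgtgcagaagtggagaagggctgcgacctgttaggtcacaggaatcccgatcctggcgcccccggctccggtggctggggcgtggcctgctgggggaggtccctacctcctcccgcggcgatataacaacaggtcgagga
Vim, chr2:13574061-13574310, plus strand: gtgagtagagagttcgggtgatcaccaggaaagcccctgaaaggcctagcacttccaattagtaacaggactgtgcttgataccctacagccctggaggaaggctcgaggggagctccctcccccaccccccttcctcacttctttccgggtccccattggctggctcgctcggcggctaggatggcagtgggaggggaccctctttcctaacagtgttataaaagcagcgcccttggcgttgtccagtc
The type II keratin genes Krt7 and Krt8 and the type I gene Krt18 lie on chromosome 15. Each of their windows held 1 CACCTG, with its first base 44 bases before the start of Krt7, 111 bases before that of Krt8 and 214 bases before that of Krt18. The Vim window held none of the 3 spellings, and neither did that of Twist1. Of 32851 RefSeq promoter windows of the same length, 17.2% held CAGGTG or CACCTG, 13.0% held CAGCTG, and 27.7% held any of them. These matches describe letters in the window and say nothing of binding.

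Values are TPM, a share of all transcripts in a library, which correct for transcript length, so levels of different genes can be compared; the read numbers behind them are unknown. Between 14148 and 14880 genes reached 1 TPM in a whole tumour, and between 11557 and 12213 in a sorted library. The 2 tables were normalised separately, and values across them are set side by side only. Mesothelin (Msln), a surface protein of mesothelium and mesothelioma, stood between 163 and 286 TPM in every whole tumour and between 150 and 316 TPM in every sorted library. In the sorted cells the leukocyte gene Ptprc (CD45) reached 0.291 to 2.05 TPM in pleural, 0.233 to 0.946 TPM in peritoneal and 0.228 to 12.9 TPM in subcutaneous libraries. The 11 leukocyte markers listed there summed to 622 and 451 TPM in subcutaneous replicates 1 and 2, and to 30.2 to 117 TPM in the other sorted libraries. Peritoneal replicate 4 stood apart among the whole tumours through its epithelial transcripts, and the keratin and Cdh1 differences it moves are given with and without it.

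The members covered a wide span of levels in both tables. Vim ranked 14 of 15054 tested genes in whole tumours by its mean of 3994 TPM, and 20 of 12357 in sorted cells by its mean of 4388 TPM. Twist1 followed at 88.2 TPM in whole tumours and 87.0 TPM in sorted cells, then Cdh2 at 29.8 and 39.0 TPM. In whole tumours Zeb1, Krt8 and Snai2 averaged 14.5, 12.6 and 9.11 TPM, and in sorted cells 11.2, 27.3 and 11.5 TPM. The other members averaged 4.00 TPM for Krt19, 1.93 TPM for Krt18, 1.90 TPM for Cdh1 and 1.35 TPM for Krt7 over the whole tumours, and Krt18 averaged 1.30 TPM in sorted cells. Krt7, Krt18 and Krt19 reached 1 TPM in none of the 5 subcutaneous tumours, so they were kept for testing only through pleural and peritoneal tumours.

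The first comparison asked how whole peritoneal tumours differed from whole subcutaneous tumours. All 4 keratins rose in peritoneal tumours, while Vim fell by a small amount. The cadherins and the 3 transcription factors did not pass the test. A gene was called changed at an adjusted p below 0.05 in limma's moderated test on log2(TPM + 1), adjusted over all genes of the table; differences below are on that scale, which understates changes of low genes. By this rule 5 of 10 members were called, beside 12.2% of all tested genes, and the members' median difference was 0.17 against 0.07 over all genes. Among the called members, Krt7, Krt18 and Krt19 were kept for testing only through cavity tumours, where they are high, which favours a call. The count is therefore not read as an excess over the share of all genes. Of all calls, 70.1% were higher in peritoneal tumours, against 42.3% after median-of-ratios scaling and 48.2% after quantile normalisation, so the balance of directions over all genes rests on the scaling; the 4 keratin calls held under each of these. In whole tissue, fewer cells of a type and less RNA per cell cannot be told apart.

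Krt8, the type II keratin that pairs with Krt18 in simple epithelia, stood at 26.8, 38.5, 17.3, 39.5 and 18.1 TPM in peritoneal tumours and at 1.44, 7.21, 7.95, 5.81 and 6.82 TPM in subcutaneous tumours. Every peritoneal tumour was above every subcutaneous tumour, and subcutaneous replicate 1 was the lowest of all 10. The means were 28.0 ± 10.7 TPM (SD, n = 5) and 5.85 ± 2.58 TPM (SD, n = 5), a difference of 2.13 on the log2 scale (95% interval 1.03 to 3.23, adjusted p = 0.0176).

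Krt19, a type I keratin of simple epithelia and mesothelium, stood at 4.48, 7.28, 6.62, 29.5 and 2.77 TPM in peritoneal tumours and at 0.228, 0.381, 0.198, 0.313 and 0.633 TPM in subcutaneous tumours. The groups did not overlap, and peritoneal replicate 4 was far above the rest. The difference was 2.63 (95% interval 1.67 to 3.59, adjusted p = 0.00257), and 2.16 without that tumour, when the peritoneal mean came to 5.29 ± 2.06 TPM (SD, n = 4).

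Krt18, the type I partner of Krt8, had 1.68, 2.51, 2.02, 15.04 and 1.34 TPM in peritoneal tumours and 0.0691, 0.110, 0.413, 0.284 and 0.114 TPM in subcutaneous tumours. Its groups did not overlap either, and the same peritoneal tumour was the highest. The difference of 1.76 (95% interval 0.90 to 2.62, adjusted p = 0.0139) came to 1.26 without peritoneal replicate 4, with a peritoneal mean then of 1.88 ± 0.499 TPM (SD, n = 4).

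Krt7, a type II keratin of mesothelium and ductal epithelia, had 3.19, 1.41, 3.31, 2.02 and 1.25 TPM in peritoneal tumours and 0.912, 0.802, 0.544, 0.741 and 0.791 TPM in subcutaneous tumours. The groups were separate but close, with the lowest peritoneal tumour a little above the highest subcutaneous one. The difference was 0.83 (95% interval 0.41 to 1.26, adjusted p = 0.0167). As ratios of mean TPM, peritoneal over subcutaneous, these differences were 28.9 for Krt19, 22.8 for Krt18, 4.79 for Krt8 and 2.95 for Krt7, so the order of Krt18 and Krt8 depends on the scale. The Krt19 and Krt18 ratios were raised by peritoneal replicate 4. It took the peritoneal mean from 5.29 to 10.1 TPM for Krt19 and from 1.88 to 4.52 TPM for Krt18. The subcutaneous means were 0.351 and 0.198 TPM. All 4 keratin calls held in each of the 16 fits that left out 1 tumour.

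**Figure D1:**
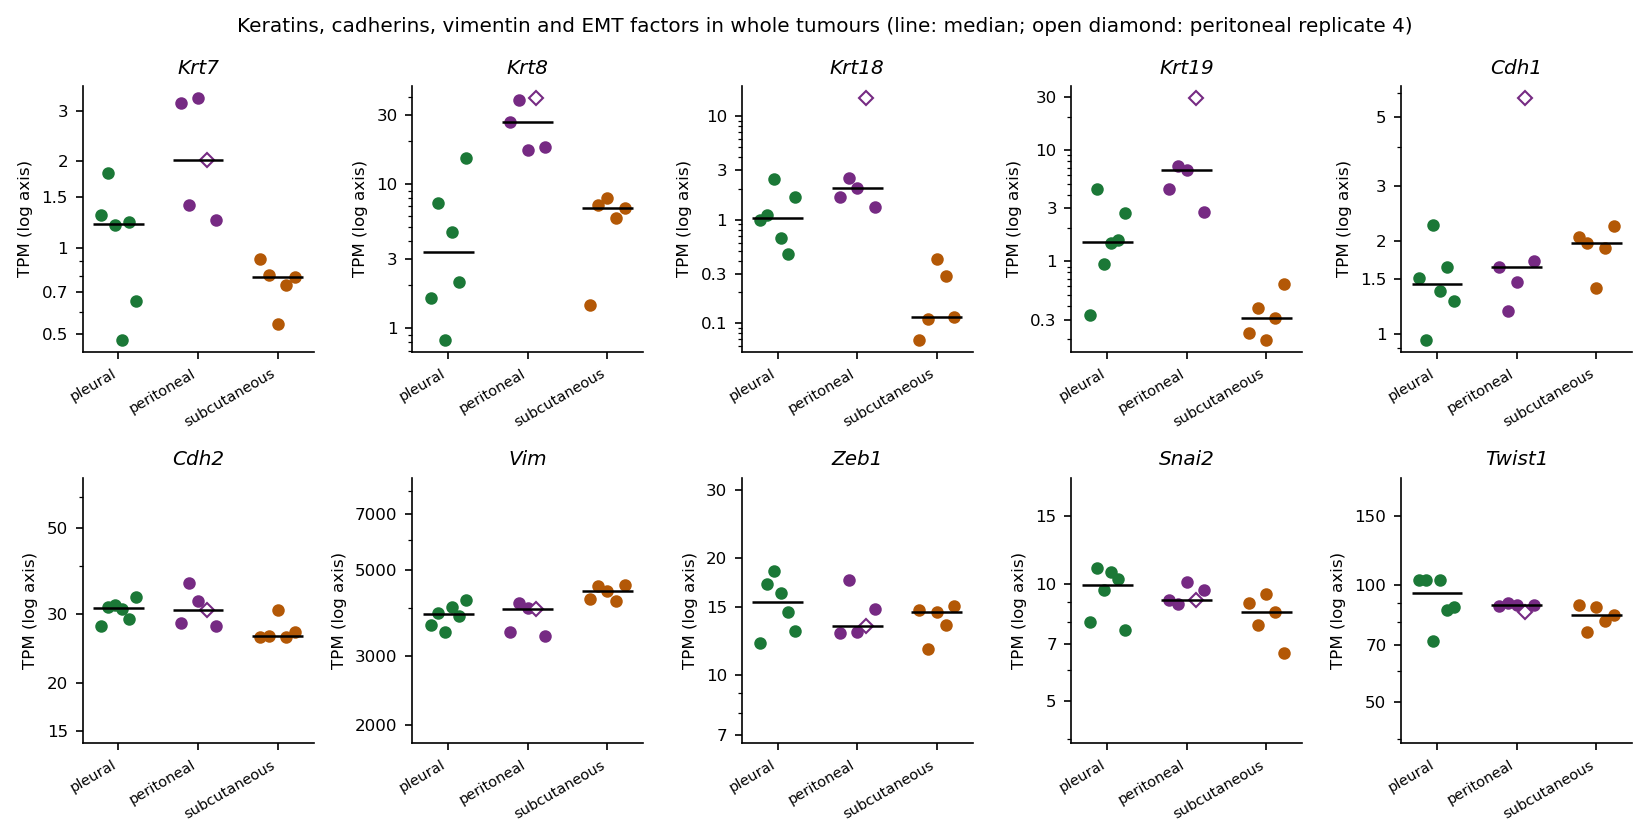
TPM of the 10 members in each whole tumour, on log axes, by site; points are tumours, lines are medians and the open diamond is peritoneal replicate 4. Krt7, Krt8, Krt18 and Krt19 were higher in all 5 peritoneal tumours than in any subcutaneous tumour, and peritoneal replicate 4 stood far above the others for Krt18, Krt19 and Cdh1.

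Whole pleural tumours were compared with the same subcutaneous tumours. Only Vim was called among the 10 members, against 12.8% of all tested genes; the members' median difference was 0.15 and that of all genes 0.07. Higher genes made up 73.4% of all calls, against 41.3% after median-of-ratios scaling and 48.4% after quantile normalisation. No keratin passed the test.

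Krt18 ranged from 0.469 to 2.49 TPM in pleural tumours, with a median of 1.05 TPM, against 0.0691 to 0.413 TPM in subcutaneous tumours. Every pleural tumour was above every subcutaneous one, yet the difference of 0.84 (95% interval 0.02 to 1.67) had an adjusted p of 0.154. It was called without peritoneal replicate 4 in the fit (adjusted p = 0.0162), with a pseudocount of 0.1 (adjusted p = 0.0235), and when the 2 sites were fitted alone (adjusted p = 0.0312).

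Krt19 ranged from 0.330 to 4.53 TPM in pleural tumours, with a median of 1.51 TPM, against 0.198 to 0.633 TPM in subcutaneous tumours. Pleural replicate 1 fell inside the subcutaneous range and the other pleural tumours lay above it. The difference was 0.97 (95% interval 0.06 to 1.89, adjusted p = 0.139); it was called without peritoneal replicate 4 in the fit (adjusted p = 0.0479) and with a pseudocount of 0.1 (adjusted p = 0.0455).

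Krt8 ranged from 0.835 to 15.3 TPM in pleural tumours, with a median of 3.35 TPM, so the pleural tumours spanned the subcutaneous range on both sides. Its difference from subcutaneous tumours was -0.40 (95% interval -1.45 to 0.66, adjusted p = 0.618). Krt7 ranged from 0.480 to 1.82 TPM with a median of 1.21 TPM in pleural tumours and differed by 0.24 (95% interval -0.17 to 0.64, adjusted p = 0.427). The Krt8 interval does not exclude a difference of 1 log2 unit downward.

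Between whole pleural and whole peritoneal tumours no member was called, nor were more than 8 of 15054 genes (0.0531%), while 1673 genes had an unadjusted p below 0.05. Krt8 showed the widest gap: its highest pleural value of 15.3 TPM, in replicate 7, was under the lowest peritoneal value of 17.3 TPM. The difference of -2.53 (95% interval -3.58 to -1.48) had an adjusted p of 0.0936, and 0.0367 when pleural replicate 7 was left out. Krt19 differed by -1.66 (95% interval -2.57 to -0.74, adjusted p = 0.194), Krt18 by -0.92 (adjusted p = 0.398) and Krt7 by -0.60 (adjusted p = 0.291), with groups that overlapped. Without peritoneal replicate 4 the Krt18 difference was -0.42 (adjusted p = 0.420) and that of Krt19 was -1.19 (adjusted p = 0.172), and both remained uncalled. The members' median difference was -0.16, against 0.00 over all genes.

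In sorted tumour cells Krt8 was lowest in pleural cells, and Krt18 was higher in peritoneal than in subcutaneous cells. Against sorted subcutaneous cells, sorted pleural cells had 1 call among 7 members, beside 1.64% of all tested genes, of which 24.1% were higher (39.7% after quantile normalisation). Sorted peritoneal cells had 1 call beside 11.1% of genes, with 42.9% higher (61.3% after quantile normalisation and 31.8% after rescaling without mitochondrial genes). Between sorted pleural and sorted peritoneal cells 1 member was called beside 9.96% of genes, with 44.7% higher (55.1% after median-of-ratios scaling and 55.1% without mitochondrial genes). The medians over the 7 members were -0.02, -0.09 and 0.04 in these comparisons, against -0.02, -0.03 and 0.00 over all genes.

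Krt8 stood at 1.86, 16.7, 2.55, 11.4 and 22.1 TPM in sorted pleural cells, at 29.6, 28.5, 35.4, 30.9 and 31.5 TPM in sorted peritoneal cells, and at 24.2, 58.0, 31.7, 31.9 and 53.8 TPM in sorted subcutaneous cells. All pleural libraries were below all others, with replicates 1 and 3 lowest, and the peritoneal libraries were close together. Krt8 fell in pleural cells against subcutaneous cells by 2.15 on the log2 scale (95% interval -3.16 to -1.13, adjusted p = 0.0300) and against peritoneal cells by 1.87 (95% interval -2.89 to -0.86, adjusted p = 0.0259).

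The first of these calls was lost without pleural replicate 3 (adjusted p = 0.0903) and without subcutaneous replicate 2 (0.0993), 3 (0.0580), 4 (0.0553) or 5 (0.0841). It was also lost without subcutaneous replicates 1 and 2 together (adjusted p = 0.177), the libraries with the most leukocyte transcript, while the difference stayed at -2.15. The second was lost without pleural replicate 3 (adjusted p = 0.0586) or peritoneal replicate 2 (0.0547). Without pleural replicate 5, in which the lung genes Sftpc and Scgb1a1 stood at 31.9 and 38.9 TPM, both calls held. Between sorted peritoneal and subcutaneous cells Krt8 differed by -0.27 (95% interval -1.29 to 0.74, adjusted p = 0.737).

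Krt18 had 0.335, 1.25, 0.512, 1.79 and 1.94 TPM in sorted pleural cells, 2.50, 1.56, 3.08, 1.78 and 1.98 TPM in sorted peritoneal cells, and 0.445, 0.688, 0.391, 0.170 and 1.12 TPM in sorted subcutaneous cells. Peritoneal and subcutaneous cells did not overlap, and pleural cells spanned both. Krt18 rose in peritoneal against subcutaneous cells by 1.03 (95% interval 0.55 to 1.52, adjusted p = 0.0108), a call that held in all 15 fits without 1 library. However, it reached 1 TPM in 5 peritoneal, 3 pleural and 1 subcutaneous libraries. It thus passed the filter for testing mainly through the sites where it was higher, which favours a difference. Pleural cells differed by 0.43 from subcutaneous cells (adjusted p = 0.533) and by -0.61 from peritoneal cells (adjusted p = 0.0999).

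**Figure D2:**
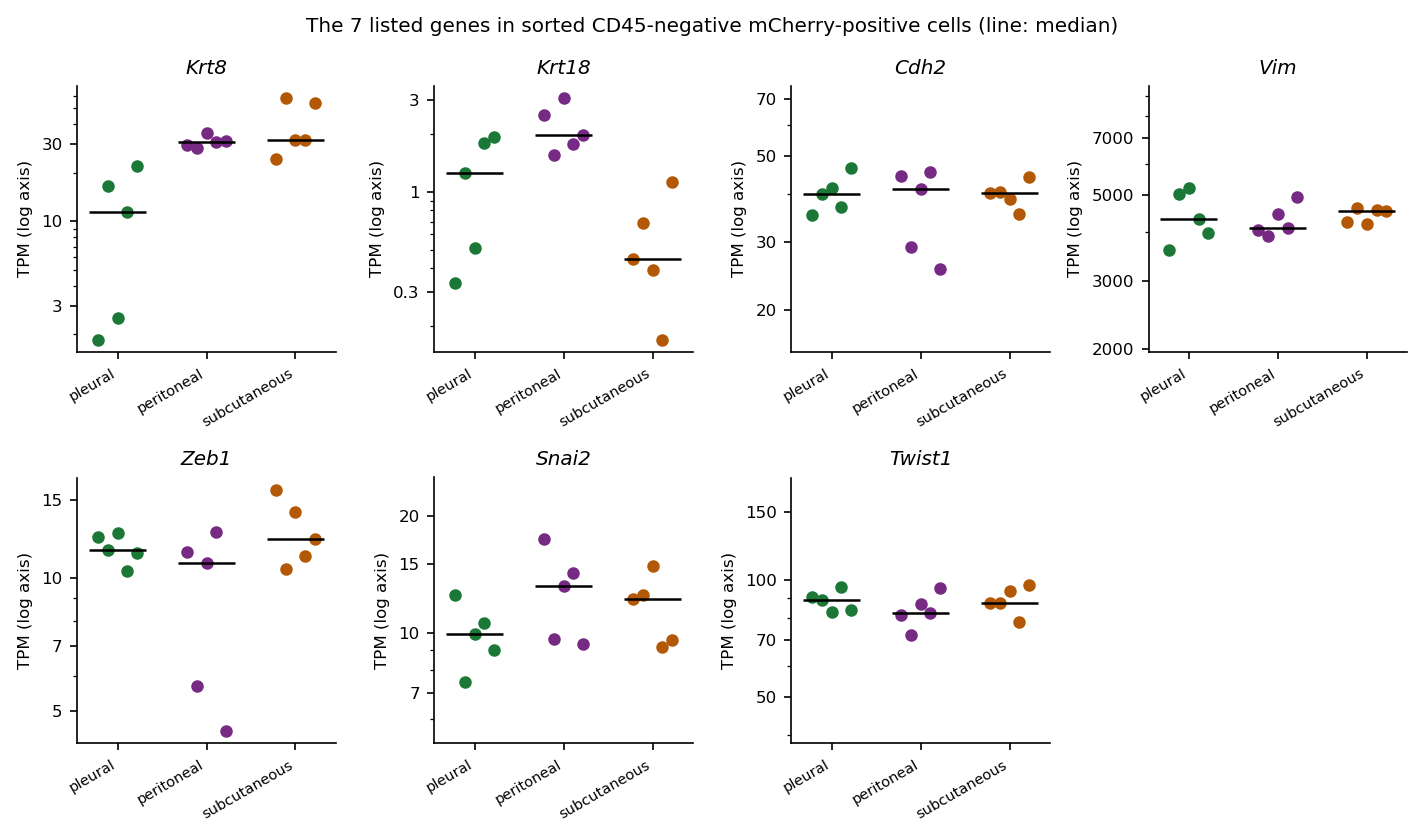
TPM of the 7 listed members in each sorted library, on log axes, by site; points are libraries and lines are medians. Krt8 was lower in the 5 pleural libraries than in any other, and Krt18 was higher in the 5 peritoneal libraries than in any subcutaneous one.

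The same mouse names occur for whole tumours and sorted cells, which allows the tables to be read side by side without a test. In subcutaneous mice 1 to 5, Krt8 was 24.2, 58.0, 31.7, 31.9 and 53.8 TPM in sorted cells, beside 1.44, 7.21, 7.95, 5.81 and 6.82 TPM in the whole tumour. In peritoneal mice 1 to 4 it was 29.6, 28.5, 35.4 and 30.9 TPM in sorted cells, beside 26.8, 38.5, 17.3 and 39.5 TPM in the whole tumour. Column names number peritoneal whole tumours 2, 3 and 4 as 3, 4 and 5, so their match to sorted libraries is uncertain. In pleural mice 1 to 5 it was 1.86, 16.7, 2.55, 11.4 and 22.1 TPM in sorted cells, beside 1.63, 7.43, 0.835, 4.62 and 2.09 TPM in the whole tumour. Pleural mice 1 and 3 were low for Krt8 in both kinds of sample. The RNA kits differed between the 2 kinds of sample, and their part in these values was not tested.

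The partner keratins Krt8 and Krt18 were in unequal amounts, and the ratio of their TPM within a library was examined after the values had been seen, as a description. In whole tumours it ran from 0.335 to 9.19 at the pleural site, from 2.62 to 15.97 at the peritoneal site and from 19.2 to 65.6 at the subcutaneous site. The value of 2.62 was that of peritoneal replicate 4, and the other peritoneal tumours ran from 8.55 to 15.97. In sorted cells the ratio ran from 4.97 to 13.4, from 11.5 to 18.2 and from 48.0 to 188 at the pleural, peritoneal and subcutaneous sites. Krt8 thus exceeded Krt18 in every library except whole pleural replicate 3, and every subcutaneous library had a higher ratio than every other library of its table. Krt18 lay under 1 TPM in most subcutaneous libraries, where a ratio is imprecise. A Krt8 pseudogene (Krt8-ps) is annotated in the mouse, and how reads shared with it were assigned is not given in the sources used here.

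Other keratins came from a list of 15, of which the same 3 were tested in both tables: Krt10, Krt20 and Krt80. Krt20, a type I keratin of gut epithelium and urothelium, fell in whole pleural against whole subcutaneous tumours, and it was the 1 call in that list (0 higher, 1 lower). It ranged from 0.0871 to 4.13 TPM with a median of 0.827 TPM in pleural tumours and stood at 1.93, 14.6, 13.2, 9.01 and 13.3 TPM in subcutaneous tumours. Subcutaneous replicate 1 alone fell inside the pleural range, and the difference was -2.32 (95% interval -3.31 to -1.33, adjusted p = 0.00739).

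Krt80 averaged 14.5, 11.9 and 12.2 TPM and Krt10 averaged 2.45, 2.88 and 2.02 TPM in pleural, peritoneal and subcutaneous tumours, and neither was called in either table. The list of 3 had a median of 0.205 for pleural and -0.03 for peritoneal against subcutaneous tumours.

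Peritoneal tumours had Krt20 at 2.96, 4.32, 1.32, 4.64 and 1.28 TPM, a difference of -1.44 from subcutaneous tumours (adjusted p = 0.0632). In sorted cells Krt20 ranged from 2.45 to 35.4 TPM in pleural, from 6.17 to 16.8 TPM in peritoneal and from 19.05 to 61.6 TPM in subcutaneous libraries. It was not called there, with a difference of -1.63 between peritoneal and subcutaneous cells (adjusted p = 0.0602) whose groups did not overlap. The ratio of Krt8 to Krt20 was 3.49 to 9.58 in whole pleural, 8.51 to 14.1 in whole peritoneal and 0.495 to 0.747 in whole subcutaneous tumours. In sorted cells it was 0.185 to 1.18, 1.69 to 4.79 and 0.716 to 1.49 at those sites, so only peritoneal cells lay apart.

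**Figure D3:**
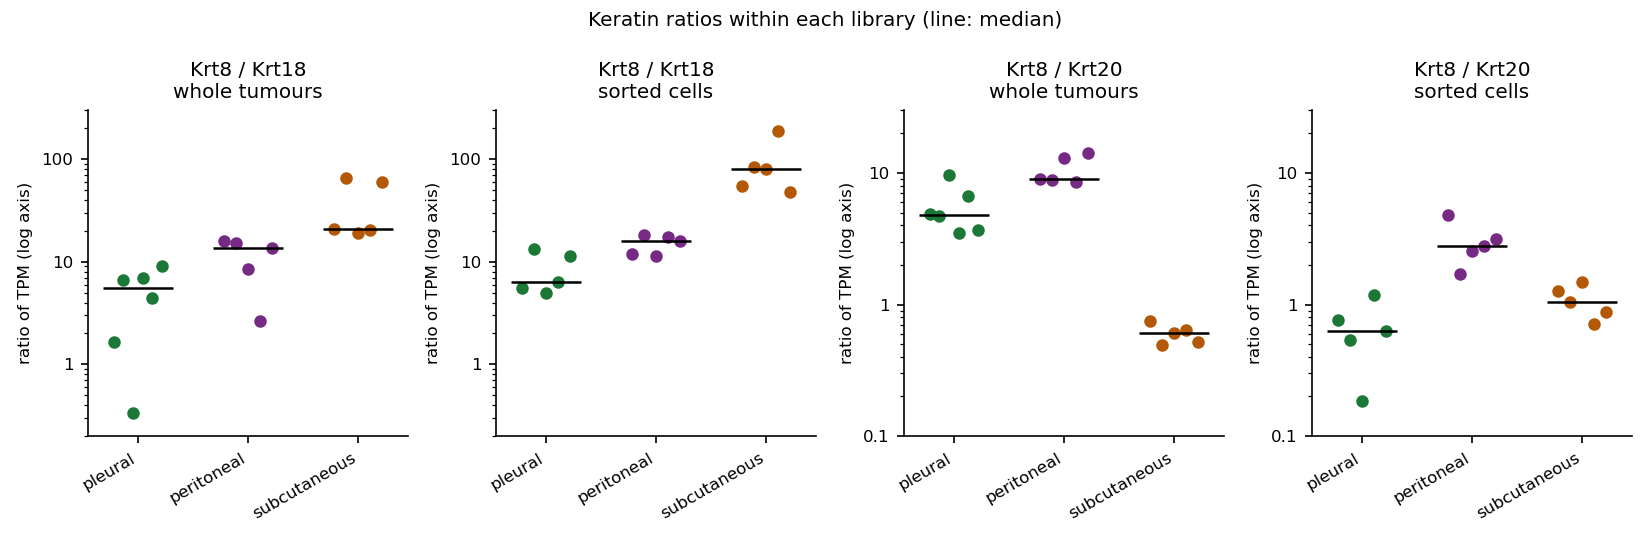
Ratio of Krt8 to Krt18 and of Krt8 to Krt20 in each library, on log axes, by site; points are libraries and lines are medians. Subcutaneous libraries had the highest Krt8 to Krt18 ratios in both tables, between 19.2 and 65.6 in the whole tumours and between 48.0 and 188 in the sorted libraries.

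Several markers of mesothelium were called higher in whole tumours of both cavities, in the pleural ones without a keratin call. Of 12 mesothelial markers, those defining the list were Msln, which was called in no comparison of whole tumours, and Upk3b. Upk3b, a uroplakin made by mesothelial cells, ranged from 0.498 to 2.61 TPM in pleural, from 1.00 to 3.02 TPM in peritoneal and from 0 to 0.00856 TPM in subcutaneous tumours. It rose by 0.99 in pleural tumours (adjusted p = 0.0139) and by 1.49 in peritoneal tumours (adjusted p = 0.00164) against subcutaneous tumours. Like Krt7, Krt18 and Krt19, Upk3b, Upk1b and Lrrn4 were kept for testing only through the cavity tumours where they are high. That filter favours a difference from subcutaneous tumours without forcing one, so the values of these genes are a description.

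Upk1b, Lrrn4, Wt1, Gata6 and Aldh1a2 were called higher in the same comparisons, and Pdpn lower. Over all genes 9.4% were called higher in pleural and 8.52% in peritoneal tumours. Gpm6a, Calb2, Bnc1 and Muc16 of the same list are not reported here, so these calls do not describe the whole list. The pleural Upk1b call was lost without each 1 of the 5 subcutaneous tumours (adjusted p up to 0.0596), and the pleural Aldh1a2 call without pleural replicate 2 or subcutaneous replicate 3 or 4 (up to 0.0568). The peritoneal Pdpn call held in 8 of 16 fits without 1 tumour (up to 0.0975). Aldh1a2, which makes retinoic acid, averaged 16.6 TPM in pleural, 33.9 TPM in peritoneal and 5.93 TPM in subcutaneous tumours. Wt1, a transcription factor of mesothelium, averaged 3.47, 3.85 and 0.728 TPM at those sites. The whole list summed to 248 to 346 TPM in pleural, 257 to 320 TPM in peritoneal and 246 to 301 TPM in subcutaneous tumours, a sum made mostly of Msln. In sorted cells 3 of the 12 were listed (Msln, Pdpn and Gata6), with sums of 194 to 360, 234 to 326 and 191 to 226 TPM, and Msln was called higher in peritoneal than in subcutaneous cells (0.52, adjusted p = 0.0459), a call that held in 6 of 15 fits without 1 library. The part of mesothelial cells in the keratin differences of whole tumours was not tested.

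Peritoneal replicate 4 also held epithelial transcripts that were low elsewhere. Epcam, an adhesion molecule of epithelia, stood at 13.6 TPM there and at 0.937 TPM or less in the other 15 whole tumours. The tight junction claudins Cldn3 and Cldn7 reached 4.05 and 5.11 TPM, against at most 0.759 and 0.486 TPM elsewhere. The epithelial transcription factors Elf3 and Ehf reached 3.37 and 2.90 TPM, against at most 0.289 and 0.440 TPM.

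The gut genes Lgals4 and Vil1 and, from the mammary list, Wfdc18 were high in that tumour too. Lgals4 reached 12.4 TPM (at most 3.67 TPM elsewhere), Vil1 1.85 TPM (at most 0.178 TPM) and Wfdc18 54.7 TPM (at most 1.04 TPM). The casein genes Csn1s1 and Csn2, which define the mammary list, were at or near 0 in all whole tumours, reaching 0.292 TPM for Csn2. The part of other epithelial cells in its keratin values was not tested; without this tumour the 4 keratin calls between peritoneal and subcutaneous tumours held.

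The other marker lists were summed in whole tumours, which hold tumour cells and surrounding tissue. Some listed genes were also high in sorted tumour cells, so the sums do not measure surrounding tissue alone. In the sorted libraries 2 keratinocyte genes summed to 157 to 385 TPM and 2 mammary genes to 18.1 to 82.9 TPM. The abdominal epithelium list (12 genes) summed to 9.67 to 15.2 TPM in pleural, 12.6 to 35.2 TPM in peritoneal and 9.22 to 11.4 TPM in subcutaneous tumours, and the mammary list (10 genes) to 11.3 to 21.5, 8.63 to 79.5 and 6.78 to 15.3 TPM. The lung epithelium list (10 genes) summed to 14.8 to 18.7, 12.1 to 22.1 and 11.9 to 18.6 TPM, with Sftpc listed at 0 TPM in every pleural and peritoneal tumour. At most 1 of these lung genes reached 1 TPM in a pleural or subcutaneous tumour, and at most 2 in a peritoneal tumour. The keratinocyte list (12 genes) summed to 74.6 to 177, 123 to 160 and 138 to 177 TPM, nearly all of it Lgals7. Its defining keratins Krt5 and Krt14 were at or near 0 except in pleural replicate 1, at 2.10 and 1.20 TPM. Skeletal muscle genes (9) summed to 5.70 to 662, 5.73 to 10.9 and 64.1 to 1244 TPM at the 3 sites, with pleural replicates 3 and 5 at 308 and 662 TPM.

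Fibroblast genes (13) summed to 3705 to 6601, 4115 to 6740 and 5080 to 6845 TPM in pleural, peritoneal and subcutaneous tumours. Leukocyte genes (12) summed to 1391 to 2206, 1217 to 1945 and 1762 to 2396 TPM, and endothelial genes (9) to 67.2 to 161, 75.0 to 116 and 100.1 to 147 TPM. Adipocyte genes (7) summed to 72.8 to 151, 41.4 to 129 and 54.3 to 252 TPM and Schwann cell genes (6) to 10.5 to 12.3, 10.1 to 12.7 and 11.4 to 18.7 TPM. The part of these cells in the members' differences was not tested. Without pleural replicates 3 and 5, the tumours with muscle transcript, the Krt8 difference between whole pleural and subcutaneous tumours was 0.10 and remained uncalled.

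**Figure D4:**
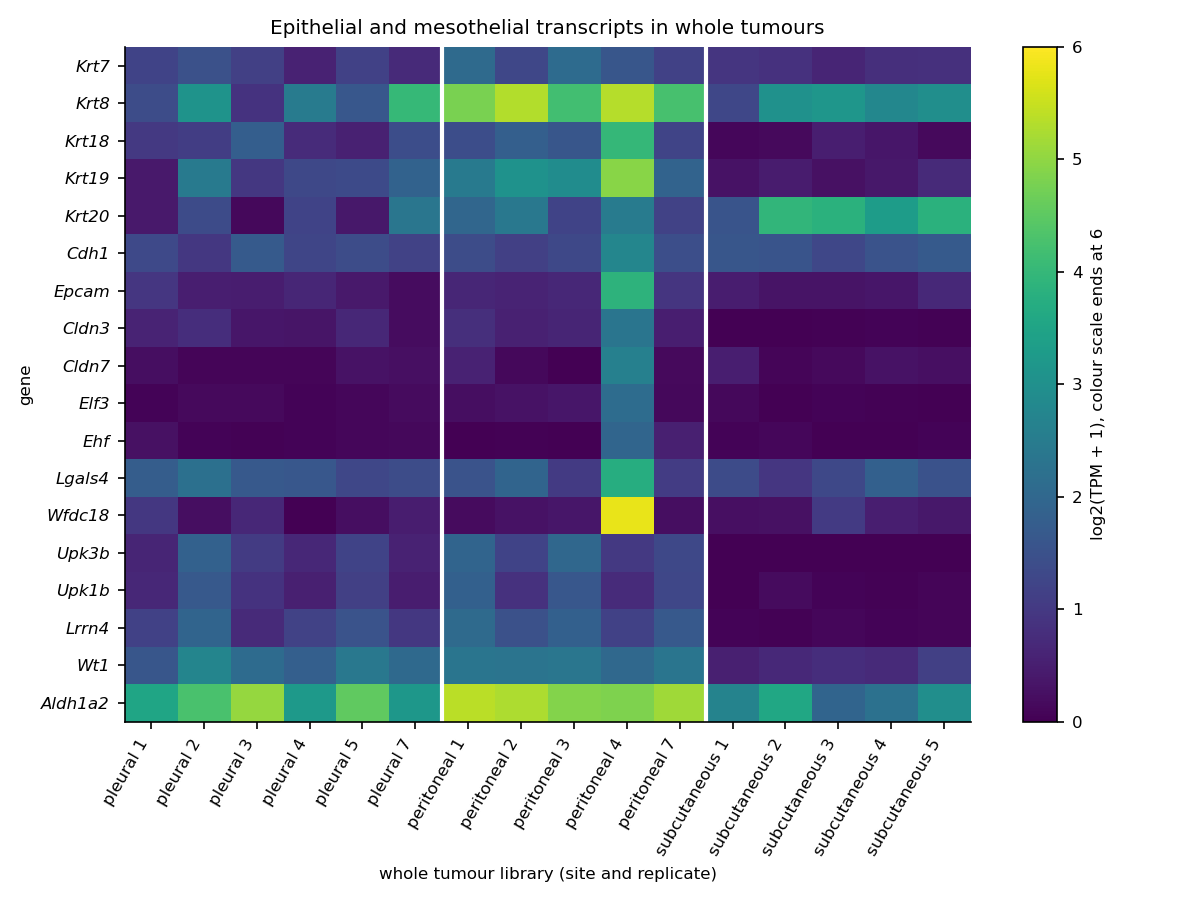
Levels of members and of epithelial and mesothelial genes in each whole tumour as log2(TPM + 1), with the colour scale from 0 to 6; columns are tumours grouped by site and rows are genes. Upk3b, Upk1b and Lrrn4 were near 0 in subcutaneous tumours, and peritoneal replicate 4 was the tumour with high Epcam, Cldn7, Elf3 and Wfdc18.

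Neither member cadherin was called in any comparison. Cdh1, the E-cadherin of epithelial junctions, ranged from 0.959 to 2.25 TPM with a median of 1.44 TPM in pleural tumours. It stood at 1.64, 1.19, 1.47, 5.77 and 1.72 TPM in peritoneal tumours and at 2.06, 1.96, 1.41, 1.90 and 2.22 TPM in subcutaneous tumours. All groups overlapped, and peritoneal replicate 4 lay far above every other tumour; without it the peritoneal mean was 1.50 ± 0.237 TPM (SD, n = 4). Cdh1 differed by -0.23 between pleural and subcutaneous tumours (95% interval -0.72 to 0.26, adjusted p = 0.527) and by 0.07 between peritoneal and subcutaneous tumours (95% interval -0.44 to 0.58, adjusted p = 0.870). Without peritoneal replicate 4 the peritoneal Cdh1 difference was -0.215, and that between pleural and peritoneal tumours was -0.01, against -0.30 with it.

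Cdh2, the N-cadherin of mesenchymal and neural cells, ranged from 28.0 to 33.1 TPM with a median of 31.2 TPM in pleural tumours. It stood at 28.5, 36.0, 32.5, 30.8 and 28.0 TPM in peritoneal tumours and at 26.3, 26.3, 30.8, 26.2 and 27.0 TPM in subcutaneous tumours. Subcutaneous replicate 3 alone overlapped the other sites. The differences from subcutaneous tumours were 0.17 for pleural (95% interval 0.02 to 0.31, adjusted p = 0.106) and 0.18 for peritoneal tumours (95% interval 0.03 to 0.33, adjusted p = 0.0940). Cdh2 exceeded Cdh1 by 12.1 to 32.7 times in 15 of the whole tumours and by 5.34 times in peritoneal replicate 4.

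In sorted cells Cdh2 stood at 35.3, 39.9, 41.4, 37.1 and 46.5 TPM in pleural, at 44.4, 29.1, 41.1, 45.4 and 25.5 TPM in peritoneal and at 40.1, 40.5, 38.9, 35.4 and 44.1 TPM in subcutaneous libraries. The sites overlapped, and peritoneal replicates 2 and 5 were the lowest. The 3 differences lay between -0.13 and 0.14, with adjusted p from 0.560 to 0.998.

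Among 11 other cadherins, 4 were tested in whole tumours, where Cdh17 was the 1 call in each comparison with subcutaneous tumours (1 higher, 0 lower); the median over the 4 was -0.52 for pleural and -0.51 for peritoneal tumours. Cdh17, the liver-intestine cadherin, ranged from 4.06 to 7.17 TPM in pleural tumours with a median of 5.16 TPM. It stood at 6.07, 6.30, 6.08, 9.57 and 6.61 TPM in peritoneal tumours and at 2.10, 2.80, 2.68, 2.34 and 2.99 TPM in subcutaneous tumours. Subcutaneous tumours lay below all others, and Cdh17 rose by 0.79 in pleural (adjusted p = 0.00225) and by 1.13 in peritoneal tumours (adjusted p = 0.000135).

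Sorted cells showed Cdh17 at 6.87, 4.32, 5.44, 7.90 and 6.33 TPM in pleural, at 7.40, 4.49, 6.83, 5.72 and 4.65 TPM in peritoneal and at 3.17, 3.20, 3.03, 2.98 and 2.87 TPM in subcutaneous libraries. Again every subcutaneous library was below every other. It rose by 0.80 in pleural (adjusted p = 0.00869) and by 0.73 in peritoneal cells (adjusted p = 0.00657) against subcutaneous cells, which both comparisons share; these calls held without any 1 library. Cdh17 also stands in the abdominal epithelium marker list.

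Vim fell in whole tumours of both cavities against subcutaneous tumours, by a small amount, and was called in no comparison of sorted cells. It ranged from 3467 to 4191 TPM with a median of 3855 TPM in pleural tumours, and stood at 3465, 4122, 3997, 3985 and 3389 TPM in peritoneal and at 4209, 4554, 4410, 4174 and 4590 TPM in subcutaneous tumours. Peritoneal tumours lay wholly below subcutaneous tumours, and 1 pleural tumour, replicate 7, overlapped them. The differences were -0.20 for pleural (95% interval -0.33 to -0.07, adjusted p = 0.0485) and -0.21 for peritoneal tumours (95% interval -0.35 to -0.08, adjusted p = 0.0422).

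Both Vim calls lie near the threshold. The pleural call was lost on leaving out pleural replicate 1, 2, 3, 4 or 5, peritoneal replicate 3 or 4, or any 1 subcutaneous tumour (adjusted p up to 0.126). The peritoneal call was lost without peritoneal replicate 1 or 7 or any 1 subcutaneous tumour (adjusted p up to 0.101). With quantile normalisation the adjusted p values were 0.480 and 0.185, and with no filter on low genes 0.118 and 0.103.

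In sorted cells Vim stood at 3600, 5014, 5220, 4334 and 3979 TPM in pleural, at 4047, 3911, 4467, 4109 and 4947 TPM in peritoneal and at 4249, 4623, 4216, 4573 and 4535 TPM in subcutaneous libraries. The sites overlapped throughout. Pleural cells differed from subcutaneous cells by -0.02 (95% interval -0.22 to 0.19, adjusted p = 0.988) and peritoneal cells by -0.05 (95% interval -0.25 to 0.15, adjusted p = 0.752). Vim was 206 to 851 times the summed Krt7, Krt8, Krt18 and Krt19 in pleural tumours, 46.3 to 144 times in peritoneal and 484 to 1588 times in subcutaneous tumours.

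The 3 repressors of Cdh1 were called in no comparison. Zeb1 ranged from 12.1 to 18.5 TPM with a median of 15.4 TPM in pleural tumours, and stood at 12.9, 17.6, 12.9, 13.4 and 14.8 TPM in peritoneal and at 14.7, 11.6, 14.5, 13.5 and 15.1 TPM in subcutaneous tumours. The sites overlapped, and the differences from subcutaneous tumours were 0.12 for pleural (95% interval -0.11 to 0.35) and 0.04 for peritoneal tumours (95% interval -0.20 to 0.28). In sorted cells Zeb1 was 12.4, 11.6, 12.7, 10.4 and 11.4 TPM in pleural, 11.4, 5.70, 10.8, 12.7 and 4.50 TPM in peritoneal and 15.9, 10.5, 14.1, 11.2 and 12.3 TPM in subcutaneous libraries.

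Peritoneal sorted replicates 2 and 5, low for Cdh2, were also the lowest for Zeb1. The difference between peritoneal and subcutaneous cells was -0.54 (95% interval -0.999 to -0.073, adjusted p = 0.120), and that between pleural and subcutaneous cells -0.11 (95% interval -0.57 to 0.35, adjusted p = 0.939).

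Snai2 ranged from 7.62 to 11.03 TPM with a median of 9.98 TPM in pleural tumours, from 8.87 to 10.2 TPM in peritoneal and from 6.66 to 9.46 TPM in subcutaneous tumours. These ranges overlapped, with differences from subcutaneous tumours of 0.18 for pleural (95% interval -0.03 to 0.39) and 0.17 for peritoneal tumours (95% interval -0.05 to 0.39). In sorted cells Snai2 was 12.5, 7.47, 9.92, 10.6 and 9.03 TPM in pleural, 17.5, 9.66, 13.2, 14.3 and 9.34 TPM in peritoneal and 12.2, 12.5, 14.9, 9.20 and 9.55 TPM in subcutaneous libraries, with adjusted p from 0.241 to 0.776.

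Twist1 was the steadiest of the factors among peritoneal tumours, at 88.0, 90.0, 88.7, 85.2 and 88.9 TPM. It ranged from 71.6 to 103 TPM with a median of 95.3 TPM in pleural tumours and stood at 88.8, 75.6, 87.6, 80.6 and 83.6 TPM in subcutaneous tumours. Pleural replicate 3, with muscle transcript, was the lowest of all. The difference of pleural from subcutaneous tumours was 0.14 (95% interval -0.03 to 0.31, adjusted p = 0.260); without pleural replicate 3 it was 0.21 and called (adjusted p = 0.0320). In sorted cells Twist1 ranged from 82.8 to 96.1 TPM in pleural, from 72.1 to 95.7 TPM in peritoneal and from 78.3 to 97.2 TPM in subcutaneous libraries, with adjusted p from 0.504 to 0.997.

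**Figure D5:**
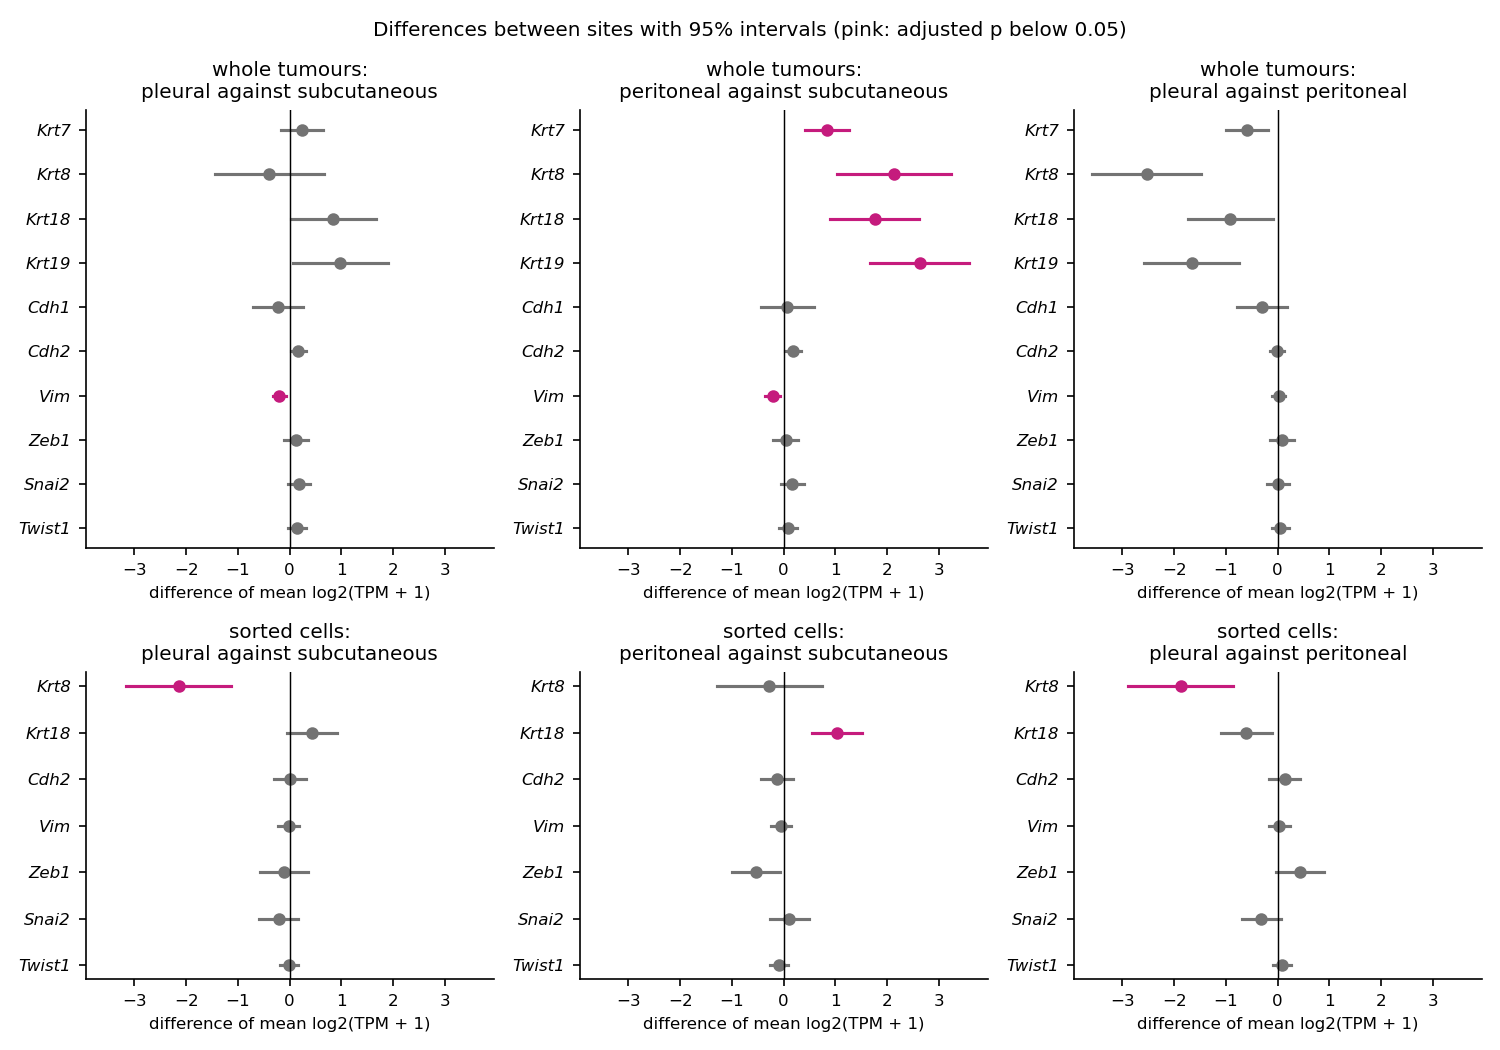
Difference of mean log2(TPM + 1) between sites for each member, with 95% intervals, in whole tumours (10 members) and sorted cells (7 members); pink marks an adjusted p below 0.05. The 4 keratins were called between peritoneal and subcutaneous whole tumours, whereas Zeb1, Snai2, Twist1, Cdh1 and Cdh2 were called in no panel.

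Genes around the members were read from 9 lists. Among 13 tested epithelial junction genes of whole tumours, 3 rose and 0 fell in pleural and 5 rose and 0 fell in peritoneal against subcutaneous tumours, with list medians of 0.11 and 0.21 against 0.07 over all genes in both. Over all genes 9.40% were called higher in pleural and 8.52% in peritoneal tumours. Leaving out 1 tumour gave 1 to 3 rises in pleural and 3 to 6 in peritoneal tumours. Cxadr, a tight junction receptor, rose by 0.59 (adjusted p = 0.00495) and 0.49 (adjusted p = 0.0142) at the 2 cavity sites. The adherens junction gene Nectin2 rose by 0.26 (adjusted p = 0.0282) and 0.36 (adjusted p = 0.00837). The pleural Nectin2 call was lost under median-of-ratios scaling (adjusted p = 0.0936). The pleural Nectin2 call was also lost without pleural replicate 2 or subcutaneous replicate 1 or 2 (adjusted p up to 0.0679).

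Of 6 proteins that tie cadherins to actin and signalling, 1 rose in pleural and 2 rose in peritoneal tumours and none fell, with list medians of 0.11 and 0.14; without 1 tumour the rises numbered 0 to 2 and 1 to 2. Ctnnd1 (p120-catenin) rose by 0.33 in peritoneal tumours (adjusted p = 0.00940). Afdn rose by 0.25 in pleural and by 0.26 in peritoneal tumours, and both calls were lost under median-of-ratios scaling (adjusted p = 0.120 and 0.0960). They also held in only 10 and 11 of 16 fits without 1 tumour (adjusted p up to 0.0796 and 0.0671). Of 6 tested epithelial regulators none was called in either comparison, with list medians of -0.01 and 0.33. Of 8 other intermediate filament genes, 2 rose and 1 fell in each comparison, with list medians of 0.03 and 0.00; without 1 tumour the rises numbered 1 to 3 and 0 to 2.

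Lmna, a lamin of the nuclear envelope, fell by 0.26 in pleural (adjusted p = 0.00956) and by 0.24 in peritoneal tumours (adjusted p = 0.0185), where the peritoneal call was lost without subcutaneous replicate 2 (adjusted p = 0.0524). The rises of Nes (0.23, adjusted p = 0.0173) and Lmnb2 (0.19, adjusted p = 0.0376) in pleural tumours and of Lmnb1 in peritoneal tumours (0.18, adjusted p = 0.0461) were lost under median-of-ratios scaling (adjusted p = 0.119, 0.118 and 0.310). Lmnb2 rose by 0.23 in peritoneal tumours (adjusted p = 0.0215), a call lost without peritoneal replicate 1, 2 or 3 or subcutaneous replicate 2 (adjusted p up to 0.0573). The Lmnb2 call in pleural tumours and the Lmnb1 call held in 10 and 3 of 16 fits without 1 tumour.

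Of 13 other transcription factors of the transition, none was called in pleural tumours and 1 rose in peritoneal tumours, with list medians of 0.08 and 0.05. Sox4 was that gene, at 0.46 (adjusted p = 0.00853). Among 21 ligands, receptors and Smads, 3 rose and 2 fell in pleural and 2 rose and 2 fell in peritoneal tumours, with list medians of 0.09 and 0.04. Without 1 tumour the pleural list had 0 to 4 rises and 1 to 3 falls, and the peritoneal list 1 to 2 of each. The ligand Tgfb3 rose by 0.46 (adjusted p = 0.0170) and 0.44 (adjusted p = 0.0253) and the signal carrier Smad3 by 0.54 (adjusted p = 0.0174) and 0.58 (adjusted p = 0.0151) at the pleural and peritoneal sites. The receptor Tgfbr2 fell by 0.36 (adjusted p = 0.0381) and 0.44 (adjusted p = 0.0223), and the pleural call held in 10 of 16 fits without 1 tumour (adjusted p up to 0.0860). Without subcutaneous replicate 2 the pleural Tgfb3 and Smad3 calls were lost (adjusted p = 0.0551 and 0.0558), the peritoneal Tgfb3 call was lost without that tumour or peritoneal replicate 2 (up to 0.0700), and the peritoneal Tgfbr2 call without subcutaneous replicate 4 or 5 (up to 0.0556).

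Of 16 mesenchymal products, 2 rose and 4 fell in each of the 2 comparisons, with list medians of -0.08 and -0.29; over all genes 3.40% were called lower in pleural and 3.64% in peritoneal tumours. Leaving out 1 tumour gave 0 to 6 falls in pleural tumours, with 0 without subcutaneous replicate 2, and 2 to 5 in peritoneal tumours. Fibronectin, Fn1, rose by 0.41 in pleural (adjusted p = 0.00897) and by 0.43 in peritoneal tumours (adjusted p = 0.00864), with means of 981, 994 and 733 TPM in pleural, peritoneal and subcutaneous tumours. The matrix protease Mmp2 fell by 1.23 (adjusted p = 0.0491) and by 1.57 (adjusted p = 0.0230), with means of 51.2, 31.5 and 97.9 TPM; its pleural call held in only 3 of 16 fits without 1 tumour (adjusted p up to 0.116), and its peritoneal call was lost without subcutaneous replicate 2, 4 or 5 (up to 0.0551). S100a4 fell by 0.50 in pleural tumours (adjusted p = 0.0306), but not without pleural replicate 2 or subcutaneous replicate 2, 4 or 5 (adjusted p up to 0.0960). Tagln, an actin-binding protein of smooth muscle, rose by 1.61 in peritoneal tumours (adjusted p = 0.0254), but not without peritoneal replicate 7 or subcutaneous replicate 1 (adjusted p up to 0.0574). None of the 9 lists held a call between whole pleural and whole peritoneal tumours.

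In sorted cells many genes of these lists were lower in peritoneal than in subcutaneous cells. Among 13 other transcription factors 0 rose and 5 fell in peritoneal against subcutaneous cells, among 17 ligands, receptors and Smads 0 rose and 7 fell, and among 14 mesenchymal products 0 rose and 7 fell. The list medians were -0.65, -0.41 and -0.53, against -0.03 over all genes, of which 6.33% were called lower. Leaving out 1 library gave 2 to 7 falls among the transcription factors, 5 to 7 among the ligands, receptors and Smads, and 3 to 8 among the mesenchymal products. Without subcutaneous replicate 1, which held the most leukocyte transcript, the counts were 2 for the transcription factors and 3 for the mesenchymal products. Over all genes the 1369 calls became 806 without that library, 752 without subcutaneous replicate 5 and 754 without peritoneal replicate 2. The part of leukocytes in these counts was not tested. Smad7, an inhibitor of TGF-beta signalling, fell by 1.76 (adjusted p = 0.00605), with means of 5.55 TPM in peritoneal and 19.9 TPM in subcutaneous cells.

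The helix-loop-helix inhibitors Id2 and Id1 fell by 1.49 (adjusted p = 0.00266) and 1.09 (adjusted p = 0.0188) in the same comparison, the second being lost without subcutaneous replicate 1 (adjusted p = 0.0516). Tgfbr2 fell by 1.05 (adjusted p = 0.0141) and Tgfbr1 fell by 0.89 (adjusted p = 0.0196); the Tgfbr1 call was lost without peritoneal replicate 2 or subcutaneous replicate 1 or 5 (adjusted p up to 0.0559). Foxc2 fell by 0.77 (adjusted p = 0.0404) and Acta2 by 1.00 (adjusted p = 0.0482), but these held in 6 and 4 of 15 fits without 1 library (adjusted p up to 0.110 and 0.130). Both tested epithelial regulators were called: Klf4 fell by 2.33 (adjusted p = 0.000231) and Klf5 fell by 1.24 (adjusted p = 0.0216), with a list median of -1.78. The Klf5 call was lost without peritoneal replicate 2 or subcutaneous replicate 4 or 5 (adjusted p up to 0.0628).

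Jup (plakoglobin), which stands in the lists of junctions and of cadherin linkers, fell by 0.47 in peritoneal cells (adjusted p = 0.0132). It was the 1 call among 10 junction genes and among 6 linkers, whose medians were -0.12 and -0.11. Lmna fell by 0.63 (adjusted p = 0.0130) as the 1 call among 6 other intermediate filament genes (median -0.05). Of 4 other cadherins Cdh17 rose and Cdh5, Cdh11 and Cdh13 fell (median -1.45), with the endothelial cadherin Cdh5 down by 1.67 (adjusted p = 0.00434).

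Between sorted pleural and subcutaneous cells few of these genes were called. Of 14 mesenchymal products 0 rose and 2 fell (median -0.19): Mmp2 by 3.07 (adjusted p = 1.22e-05) and Sparc by 0.32 (adjusted p = 0.0297, in 9 of 15 fits without 1 library). Of 4 other cadherins Cdh17 rose and Cdh11 and Cdh13 fell (median -1.08), and the other lists held no call, with medians from -0.53 for epithelial regulators to 0.04 for other transcription factors. Mmp2 averaged 2.41 TPM in pleural, 2.02 TPM in peritoneal and 28.0 TPM in subcutaneous cells, and it fell by 3.29 in peritoneal cells (adjusted p = 4.37e-06).

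In sorted cells the summed fibroblast and endothelial markers had their highest medians at the subcutaneous site. The 12 fibroblast genes listed there summed to 3247 to 4170 TPM in pleural, 2590 to 4436 TPM in peritoneal and 3712 to 6351 TPM in subcutaneous cells, and the defining marker Pdgfrb averaged 5.17, 4.54 and 13.2 TPM. The 5 endothelial genes summed to 4.08 to 21.5, 3.25 to 11.5 and 18.4 to 32.02 TPM, with Pecam1 at means of 2.84, 1.61 and 6.56 TPM. The leukocyte genes stood at 30.2 to 74.5 TPM in pleural and 32.3 to 69.5 TPM in peritoneal cells, and subcutaneous replicates 3 and 5 (46.2 and 37.7 TPM) lay within those ranges while replicates 1, 2 and 4 lay above. The part of such cells in the differences was not tested.

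Between sorted pleural and peritoneal cells all calls in these lists were higher in pleural cells. Both epithelial regulators rose in pleural cells, Klf5 by 1.45 (adjusted p = 0.0139) and Klf4 by 1.07 (adjusted p = 0.0395), the second in 6 of 15 fits without 1 library, with a list median of 1.26. Of 13 other transcription factors 3 rose and 0 fell (median 0.41; 0 to 4 rises without 1 library, and 4.45% of all genes higher), with Id3 at 1.19 (adjusted p = 0.0294, in 10 of 15 fits) and Foxc2 at 0.83 (adjusted p = 0.0333, in 9 of 15). Of 17 ligands, receptors and Smads 2 rose and 0 fell (median 0.36), with Smad7 at 1.71 (adjusted p = 0.0110) and Tgfbr1 at 0.73 (adjusted p = 0.0488, in 3 of 15).

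Of 14 mesenchymal products 3 rose and 0 fell in pleural against peritoneal cells (median 0.22), among them Itga5 by 0.79 (adjusted p = 0.0205, or 0.0591 without peritoneal replicate 2) and the hyaluronan receptor Cd44 by 0.73 (adjusted p = 0.0152). All genes had a median of 0.00. The remaining lists held no call in this comparison, with medians from 0.02 to 0.23.

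The genes whose levels followed each member most closely were ranked by Pearson correlation of log2(TPM + 1), as a description; the libraries share their sites and 1 normalisation, so a shared difference between sites raises r. Over the 16 whole tumours Krt7 was followed by Dhx35 (r = 0.88) and by the mesothelial genes Upk3b (0.84) and Upk1b (0.83), and within sites the last 2 kept r of 0.77 and 0.75. Krt8 was followed by Alox15 (0.90), Cilk1 (0.88) and Ccdc170 (0.88), Krt18 by Clca1 (0.90), Krt19 (0.88) and Suds3 (0.86), and Krt19 by Cdh17 (0.88), Padi4 (0.88) and Fer1l6 (0.88). Within sites the r of these Krt8, Krt18 and Krt19 pairs ran from 0.52, for Krt19 with Fer1l6, to 0.86, for Krt18 with Clca1. Cdh1 was followed by Plet1 (0.90), Nedd8 (0.87) and Spint2 (0.83), and its rho with Spint2 was 0.56. Without peritoneal replicate 4, a choice made after seeing the data, the r of Cdh1 was 0.55 with Plet1, 0.75 with Nedd8 and 0.43 with Spint2, and that of Krt18 was 0.71 with Clca1, 0.75 with Krt19 and 0.72 with Suds3, over 15 tumours.

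Cdh2 was followed in whole tumours by Arhgap10 (r = 0.92), Prxl2c (0.90) and Synj2 (0.88), Vim by Lmna (0.89), Acot7 (0.89) and Itgbl1 (0.85), Zeb1 by Rabgap1l (0.85), Zmiz1 (0.85) and Slc38a1 (0.84), Snai2 by Dynll2 (0.79), Tmem135 (0.79) and Ganc (0.78), and Twist1 by Spry2 (0.90), Marchf9 (0.88) and Lrig1 (0.88). Over the 15 sorted libraries Krt8 was followed by Tnfrsf4 (r = 0.91), Anxa8 (0.91) and Sncg (0.89), and Krt18 by Rps10-ps4 (0.90), Cldn6 (0.89) and Fer1l6 (0.88). Fer1l6 thus stood beside a type I keratin in both tables, with lower r within sites: 0.52 for Krt19 in whole tumours and 0.68 for Krt18 in sorted cells.

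For Cdh2 in sorted cells these were Gramd4 (0.97), Ralgapb (0.96) and Ppp3ca (0.95), and for Zeb1 Phc3 (0.98), Sec23a (0.98) and Twsg1 (0.98); both members were low in peritoneal replicates 2 and 5. Snai2 was followed by Cep290 (0.91), Ndor1 (0.91) and Arxes2 (0.91), Vim by Romo1 (0.74), Cltb (0.73) and Zfp580 (0.73), and Twist1 by Galnt2 (0.75), Ccnt1 (0.74) and Gzmm (0.69).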

How the data were processed

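RNA-seq was done on 16 whole tumours and 15 libraries of sorted tumour cells, with 50-base single-end reads on an Illumina HiSeq, per the labels' protocols. Per the submitters' processing notes, reads were assigned with kallisto on GRCm39; the sources used here give neither its version nor the annotation. The authors deposited TPM, 1 table for each kind of sample. Each whole tumour library summed to 1e+06 TPM. The genes analysed in the sorted libraries summed to 995076 to 997372 TPM. RNA was extracted with different kits for the 2 kinds of sample. Among the sorted values, 17 entries turned into dates (0.0685 to 0.105% of TPM) were left out. Depth is unknown from TPM, so no counting error can be given. The sorted table lists no gene whose highest library is below 1.26 TPM.

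Each replicate is 1 mouse, numbered in the titles; peritoneal whole tumours 2, 3 and 4 are numbered 3, 4 and 5 in the table's columns. A gene was tested if 5 or more libraries reached 1 TPM, on log2(TPM + 1) with limma 3.58.1 (R 4.3.3), moderated with an intensity trend, with all 3 sites in 1 fit per table and Benjamini-Hochberg adjustment over all tested genes; the steps were tested on simulated data. Intervals are at 95%. The text names all 10 members. From each of the 9 gene lists and each comparison it names up to 3 called genes with the largest difference and 5 TPM or more on average in the higher site, and for likeness the 3 genes with the highest r and no predicted or clone name; some genes this names are not reported here. The members and lists, also the 11 marker lists, were chosen with earlier results of these data known. Alternatives were another pseudocount, filter, scaling, threshold, variance estimate, fits of 2 sites, a replicate block and leaving out libraries.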

Additional observations from a re-analysis of the deposited data

Results flagged for a closer look

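Of 51 groups examined, each a member at 1 site in 1 table, 4 held 1 tumour far from the others by the size of its gap to the nearest one; chance does this in about 1 of 20 groups, or 2.55 of the 51. In 3 of the 4 it was the same tumour. Peritoneal replicate 4 had 15.04 TPM of Krt18, where the next highest peritoneal tumour had 2.51 TPM, 29.5 TPM of Krt19 (next 7.28 TPM) and 5.77 TPM of Cdh1 (next 1.72 TPM). Subcutaneous replicate 3 had 30.8 TPM of Cdh2, where the next highest subcutaneous tumour had 27.0 TPM.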

How the results depend on the processing

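Among 1362 values of members under alternatives, 1271 kept their direction and side of the threshold, 48 lost and 8 gained the call, and 35 changed sign, all of them uncalled; the 5 TPM filter left 36 of 51 values. The number of members called in whole tumours, 1 for pleural and 5 for peritoneal against subcutaneous, became 0 and 1 at an adjusted p below 0.01. For pleural against subcutaneous tumours it was 3 with a pseudocount of 0.1, 2 with the 2 sites fitted alone, and 0 with no filter or with quantile normalisation; for peritoneal it was 2 with the 5 TPM filter. In sorted cells 1 call per comparison became 0 in all 3 at an adjusted p below 0.01, 0 for peritoneal against subcutaneous with the 5 TPM filter, which leaves Krt18 untested, and 0 for both pleural comparisons with the 2 sites fitted alone. Pleural against subcutaneous cells also gave 0 with robust variance and without subcutaneous libraries 1 and 2, and pleural against peritoneal cells 0 without peritoneal libraries 2 and 5.

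Mice differ between sites and share only a number: correlations of same-numbered libraries ran from -0.377 to 0.349, and not every pair in any comparison was over 0.1. With a replicate block, 0 members were called for pleural and 2 for peritoneal against subcutaneous tumours (Krt7, adjusted p = 0.0271, and Krt19, adjusted p = 0.0111); Krt8 had an adjusted p of 0.0524 there and Krt18 0.0531. Leaving out each library in turn gave 0 to 2 members for pleural against subcutaneous tumours, 0 to 1 for pleural against peritoneal tumours, and 0 to 1 for each of pleural against subcutaneous and pleural against peritoneal cells. Uncalled differences that changed sign were, with median-of-ratios scaling, Twist1 (0.0234) and Vim (0.0122) in pleural against subcutaneous cells and Zeb1 (-0.0374) in peritoneal against subcutaneous tumours, and with quantile normalisation Vim (0.0208) and Zeb1 (-0.0357) in the same comparisons. Without peritoneal sorted libraries 2 and 5, Cdh2 was 0.133 for peritoneal against subcutaneous and -0.127 for pleural against peritoneal cells; without pleural tumours 3 and 5, Krt8 was 0.101 against subcutaneous and Snai2 -0.0198 against peritoneal tumours. Leaving out 1 library gave, in whole tumours, Zeb1 -0.0351 to 0.0699 and Cdh1 -0.215 to 0.193 for peritoneal against subcutaneous, and Cdh2 -0.0518 to 0.0368, Vim -0.0213 to 0.0493 and Snai2 -0.0263 to 0.0701 for pleural against peritoneal. In sorted cells it gave Snai2 -0.00689 to 0.202 for peritoneal against subcutaneous, Vim -0.0273 to 0.107 for pleural against peritoneal, and Cdh2 -0.0490 to 0.0484, Vim -0.0787 to 0.0553 and Twist1 -0.0484 to 0.0286 for pleural against subcutaneous. The cause of these changes was not tested.

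Counts over all genes moved more. The 1927 genes for pleural and 1831 for peritoneal against subcutaneous tumours became 849 and 656 with the replicate block, 1136 and 1164 with no filter, 401 and 477 at an adjusted p below 0.01, and 748 to 2226 and 896 to 2178 without 1 tumour; the 8 between the cavities became 0 to 33. In sorted cells the 203 and 1369 genes of pleural and peritoneal against subcutaneous cells became 118 to 268 and 752 to 1610 without 1 library and 106 and 432 at an adjusted p below 0.01. The first was 107 with the 5 TPM filter and the second 2486 with quantile normalisation. The 1231 between pleural and peritoneal cells became 1932 with median-of-ratios scaling, 2229 with quantile normalisation, 691 with those sites alone, 187 at an adjusted p below 0.01 and 528 to 1420 without 1 library. Without peritoneal sorted libraries 2 and 5 together, 485 genes were called between pleural and peritoneal cells and 741 between peritoneal and subcutaneous cells. Krt7, Krt18 and Cdh1 lie near 1 TPM, where the unknown depth limits precision.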
